A study of Mus musculus with 6 samples.

Results

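The salt-inducible kinases, the CRTC coactivators and the CREB-type transcription factors of mouse liver were followed as 10 genes, taken by symbol from a table of 34866 genes: Sik1, Sik2, Sik3, Crtc1, Crtc2, Crtc3, Creb1, Crem, Creb3l3 and Ppargc1a. All 10 were in the table and all 10 passed the filter on low counts, which left 13718 genes for testing. The samples were livers of male C57BL/6 mice aged 8 weeks, 3 given iD1 and 3 given vehicle, with food and water freely available and with injections into the peritoneum. The labels identify iD1 by that code alone and give no dose, exposure time or target. Vehicle livers carry a vehicle name in their titles but the word untreated as their treatment. One vehicle column has a number that no sample title carries and is called the unnumbered vehicle replicate. The sample titled vehicle 3 has no column of that number. Whether the unnumbered column holds that sample is not stated, so its age of 8 weeks is not established. Separate animals are not stated for the libraries of a group, so each p-value reflects only how far these libraries spread, which may be technical.

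Salt-inducible kinases belong to the AMPK-related family and are activated by the kinase LKB1. They phosphorylate CRTC proteins, which are then held in the cytoplasm by 14-3-3 proteins. When glucagon raises cAMP in a hepatocyte, protein kinase A inhibits the salt-inducible kinases and phosphorylates CREB. Dephosphorylated CRTC proteins then enter the nucleus and bind CREB at cAMP response elements, the short DNA motif TGACGTCA or its core TGACG. Genes of glucose production such as Pck1, and also Sik1, Crem and Ppargc1a themselves, are known targets of this switch. Creb3l3 encodes a membrane-bound relative of CREB, released by proteolysis and largely restricted to liver and gut, which controls genes of lipid transport and the fasting response.

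RefSeq promoter windows on GRCm38.p6, from 250 bases before to 50 bases after a transcript start, were found for 7 of the 10 genes, in 8 windows. No entry was found for Sik1, Crtc2 or Crem. The windows of Sik3 and Ppargc1a are shown because, of the genes called higher, these held the core TGACG within 150 bases before the start, and that of Pck1 because its cAMP response element is the textbook example. The 150 bases before each start are printed 5′ to 3′ on the gene's strand, and capitals mark TGACG or its reverse complement CGTCA. Sik3 lies at chr9:46012670-46012819 on the plus strand, Ppargc1a at chr5:51567726-51567875 on the minus strand and Pck1 at chr2:173152923-173153072 on the plus strand.
Sik3: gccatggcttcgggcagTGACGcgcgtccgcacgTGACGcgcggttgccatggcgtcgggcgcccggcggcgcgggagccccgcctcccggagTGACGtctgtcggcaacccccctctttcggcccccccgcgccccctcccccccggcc
Ppargc1a: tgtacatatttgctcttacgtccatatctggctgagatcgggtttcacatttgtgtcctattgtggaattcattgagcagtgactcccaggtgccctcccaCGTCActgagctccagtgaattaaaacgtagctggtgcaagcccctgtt
Pck1: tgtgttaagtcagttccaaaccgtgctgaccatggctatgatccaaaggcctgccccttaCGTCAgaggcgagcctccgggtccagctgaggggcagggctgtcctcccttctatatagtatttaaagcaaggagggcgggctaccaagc

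The Sik3 stretch held 3 copies of the core, whose first bases lay at -133, -116 and -57 from the start. Ppargc1a held 1, at -49, and Pck1 held 1, at -90. Sik2, whose transcript was not called, also held the core, at -1 and at 13, as did 1 of the 2 Creb3l3 windows, at -239. In all, 4 of the 8 windows of these genes held TGACG on either strand (50%), against 20.8% of the 32851 windows of all genes. The full element TGACGTCA, which contains the core on both strands, was in 0 of the 8 windows and in 1.79% of all windows. A FoxO-type motif, TGTTTAC or GTAAACA, was in 0 of the 8 windows (3.65% of all), and an AP-1-type motif, TGACTCA or TGAGTCA, was in 1 of 8, at -55 of the other Creb3l3 window (5.2% of all). These matches describe letters in short windows and not binding.

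In edgeR's quasi-likelihood test 5 of the 10 transcripts were higher in iD1 livers at an adjusted p under 0.05 and 0 were lower. Over all tested genes 8.42% were called higher and 8.3% lower. The 5 were Sik1, Sik3, Crtc2, Creb3l3 and Ppargc1a. The median log2 fold change of the 10 genes was 0.54, and that of all tested genes was 0.0006. Without any 1 of the 3 vehicle libraries the count of higher genes was 3 (Sik1, Sik3 and Crtc2). Groups did not overlap for 6 of the 10, against 37.2% of all tested genes: these 5 lay higher in iD1 livers, as did 18.5% of all tested genes, and Creb1 lay lower, as did 18.7%. Totals ran from 23515571 to 35207596 estimated counts in the iD1 libraries and from 27160894 to 37613549 in the vehicle libraries. Higher genes made up 50.4% of all calls, 38.4% of those under upper-quartile factors and 24.1% of those under scaling by library size alone. That last scaling moved the median of all genes to -0.20 on the log2 scale.

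**Figure D1:**
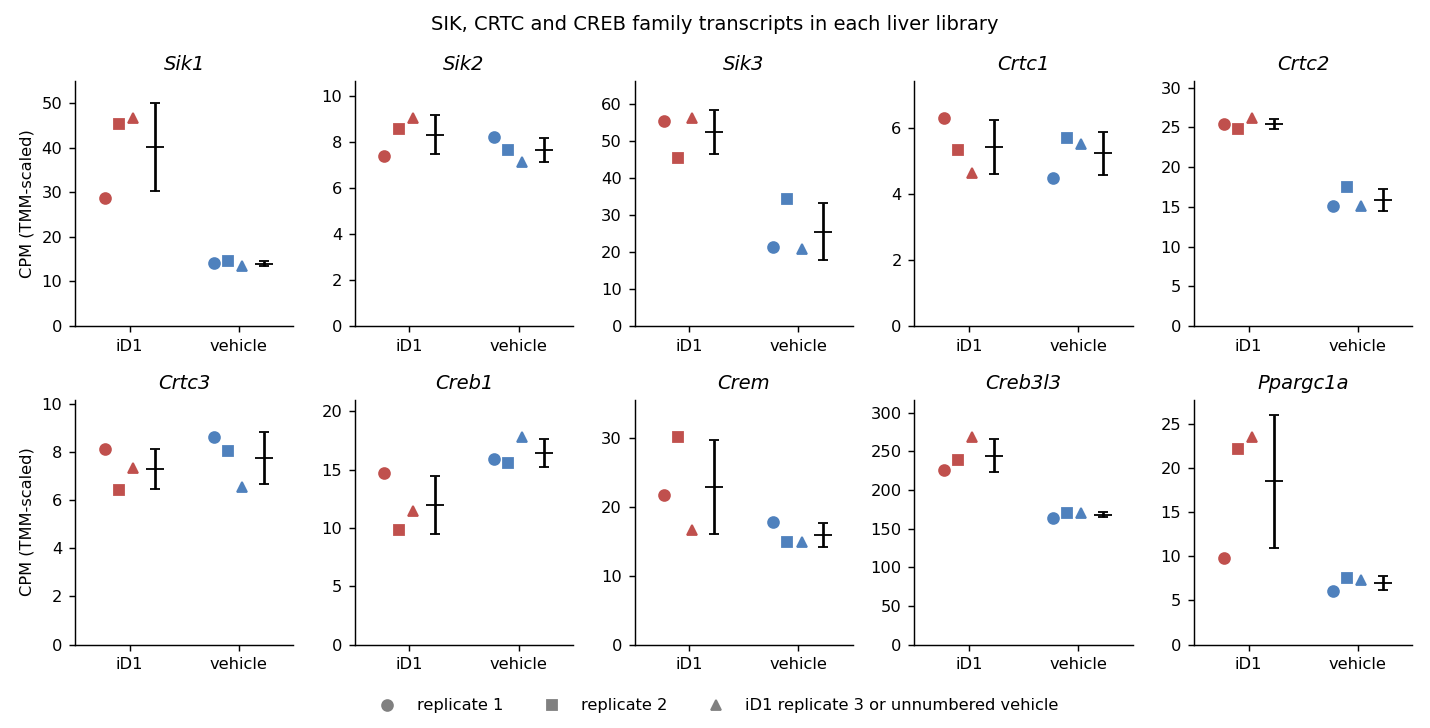
Normalised expression (CPM, scaled by TMM) of the 10 transcripts in the 3 iD1 (red) and 3 vehicle (blue) livers, with the group mean and SD in black; marker shapes tell the libraries of a group apart and pair none across groups. Sik1, Sik3, Crtc2, Creb3l3 and Ppargc1a show no overlap between the groups, iD1 replicate 1 is the lowest iD1 library for Sik1 (28.7 CPM) and Ppargc1a (9.79 CPM), and Creb1 is the gene whose iD1 values all lie below the vehicle values.

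Among the kinases, Sik1 and Sik3 were higher with iD1 and Sik2 was not called. Sik1, the member whose own transcription is induced by cAMP, measured 28.7, 45.2 and 46.5 CPM (depth-scaled counts, with TMM factors) in the iD1 livers, against 14.1, 14.5 and 13.4 CPM in the vehicle livers. The vehicle libraries lay close together, and iD1 replicate 1 stood below the other iD1 libraries but well above every vehicle library. The mean was 40.2 ± 9.91 CPM in iD1 and 13.98 ± 0.574 CPM in vehicle livers (SD, n = 3 each), a 2.87-fold difference with a 95% interval of 2.17 to 3.79. Its log2 fold change was 1.52 (SE 0.18), larger in size than that of 96.4% of tested genes, and its edgeR adjusted p was 9.76e-04. The call held without each of the 6 libraries in turn, with adjusted p-values up to 0.00965.

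Sik3, the kinase with the most counts of the 3, measured 55.5, 45.5 and 56.1 CPM in iD1 livers, against 21.3, 34.4 and 20.8 CPM in vehicle livers. Vehicle replicate 2 stood above the other vehicle libraries and still below every iD1 library. Means were 52.4 ± 5.98 CPM in iD1 and 25.5 ± 7.76 CPM in vehicle livers (SD, n = 3 each), and the fold was 2.05 (95% interval 1.49 to 2.82; edgeR adjusted p = 0.0103). No removal of a single library ended the call, with adjusted p-values up to 0.0454. Sik2, the isoform known best from fat tissue, measured 7.38, 8.54 and 9.01 CPM in iD1 and 8.18, 7.64 and 7.14 CPM in vehicle livers. These groups overlapped, with a fold of 1.09 and a 95% interval of 0.873 to 1.35, which leaves out a change as large as the estimate for Sik1 or Sik3 (edgeR adjusted p = 0.610). Exons of Sik2 share 1429 bases with Ppp2r1b on the other strand, and the counting is not stated to use strand, so the 2 genes may exchange reads. Ppp2r1b itself was not called (log2 fold change 0.21). Sik1 took 31.4%, 45.5% and 41.7% of the CPM of the 3 kinases in iD1 livers, against 32.4%, 25.6% and 32.4% in vehicle livers. iD1 replicate 1 fell among the vehicle libraries, and the means differed by 9.40 percentage points. The exact two-sided permutation test gave p = 0.3, where 3 against 3 libraries allow no value under 0.1.

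Among the coactivators Crtc2 was higher with iD1, and Crtc1 and Crtc3 were not called. Crtc2, the family member that hepatocytes use to turn on glucose production, measured 25.4, 24.9 and 26.1 CPM in iD1 livers, against 15.1, 17.5 and 15.2 CPM in vehicle livers. Each group was tight, and the lowest iD1 library exceeded the highest vehicle library. Crtc2 averaged 25.5 ± 0.647 CPM in iD1 and 15.9 ± 1.38 CPM in vehicle livers (SD, n = 3 each), a 1.6-fold difference with a 95% interval of 1.34 to 1.9. In the edgeR fit this had an adjusted p of 0.00455, which stayed at 0.0283 or lower without any single library.

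Crtc1, the paralog known chiefly from neurons, measured 6.29, 5.34 and 4.64 CPM in iD1 and 4.49, 5.69 and 5.51 CPM in vehicle livers. Its fold was 1.04 (95% interval 0.789 to 1.36; edgeR adjusted p = 0.873), and the sign of its log2 fold change turned under library size only (-0.14) and under upper-quartile factors (-0.021). Crtc3, studied mostly in fat and immune cells, measured 8.10, 6.41 and 7.34 CPM in iD1 and 8.62, 8.03 and 6.52 CPM in vehicle livers, with a fold of 0.942 (95% interval 0.734 to 1.21; edgeR adjusted p = 0.757). For both genes the groups overlapped. Crtc2 accordingly made up 63.9%, 67.9% and 68.6% of the CPM of the 3 coactivators in iD1 livers, against 53.5%, 56.1% and 55.7% in vehicle livers. The groups did not overlap, and the exact two-sided permutation test gave p = 0.1, the smallest that 3 against 3 libraries allow.

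**Figure D2:**
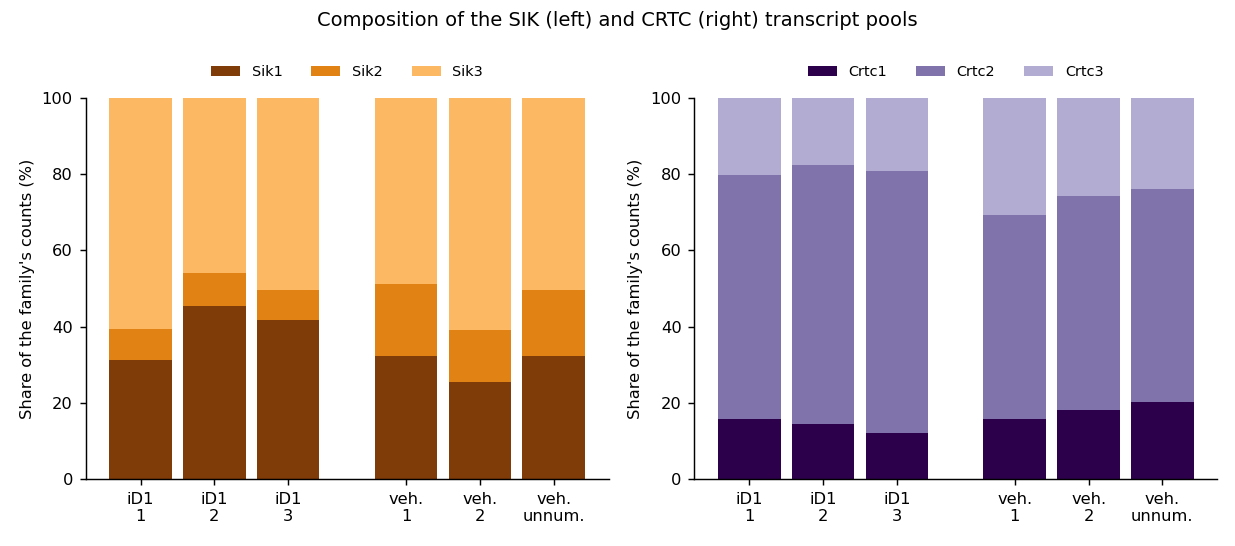
Share of the CPM of each family (percent, vertical axis) taken by Sik1, Sik2 and Sik3 (left) and by Crtc1, Crtc2 and Crtc3 (right) in each iD1 and vehicle library. The Crtc2 segment covers 63.9% to 68.6% in iD1 and 53.5% to 56.1% in vehicle livers, while the Sik1 segment of iD1 replicate 1 (31.4%) lies within the vehicle range.

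Neither Creb1 nor Crem, the DNA-binding partners of the coactivators, was called. Creb1 measured 14.7, 9.84 and 11.4 CPM in iD1 livers, against 15.9, 15.5 and 17.8 CPM in vehicle livers. All iD1 libraries lay below all vehicle libraries, with iD1 replicate 1 nearest to them. The log2 fold change was -0.45 (SE 0.16), with an unadjusted p of 0.0169 and an adjusted p of 0.0788 in edgeR. Creb1 was called lower without iD1 replicate 1, where its log2 fold change was -0.63 (edgeR adjusted p = 0.0157), and also without a filter (adjusted p = 0.0426), under upper-quartile factors (0.0470) and under library size only (0.0455).

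Crem encodes activators and, from an internal cAMP-inducible promoter, the short repressor ICER, and the gene-level counts do not separate these products. It measured 21.8, 30.2 and 16.7 CPM in iD1 livers, against 17.9, 14.8 and 14.9 CPM in vehicle livers. iD1 replicate 2 was the highest library, and iD1 replicate 3 fell within the vehicle range. The log2 fold change was 0.53 (SE 0.20), with an adjusted p of 0.109 in edgeR, and Crem was called higher only in the fit without iD1 replicate 3 among all alternatives run (log2 fold change 0.72, adjusted p = 0.0364). Exons of Crem share 472 bases with Gm6225 on the other strand, which is not analysed here.

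Creb3l3 had the most counts of the 10 genes, from 4931 to 7374 a library. It measured 226, 239 and 269 CPM in iD1 livers, against 164, 170 and 170 CPM in vehicle livers, with no overlap. The means of 245 ± 21.7 CPM in iD1 and 168 ± 3.22 CPM in vehicle livers (SD, n = 3 each) gave a fold of 1.46 (95% interval 1.2 to 1.77; edgeR adjusted p = 0.0177). The log2 fold change of 0.54 became 0.34 with library size only, where the adjusted p was 0.0840. The call was also lost without iD1 replicate 3 (adjusted p = 0.0730), or without any 1 vehicle library (0.0520 to 0.0697).

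Ppargc1a encodes PGC-1 alpha, a coactivator that fasting and glucagon induce in liver and that drives glucose production and mitochondrial genes. It measured 9.79, 22.2 and 23.5 CPM in iD1 livers, against 6.05, 7.52 and 7.26 CPM in vehicle livers. iD1 replicate 1 stood between the vehicle libraries and the other iD1 libraries, closer to the vehicle values. Ppargc1a averaged 18.5 ± 7.57 CPM in iD1 and 6.94 ± 0.782 CPM in vehicle livers (SD, n = 3 each). The fold was 2.66, with a wide 95% interval of 1.58 to 4.48 and an adjusted p of 0.0262 in edgeR. Without iD1 replicate 1 the log2 fold change was 1.72 and the adjusted p 1.20e-04. Leaving out any other library ended the call, with adjusted p-values of 0.0779 without iD1 replicate 2, 0.0758 without iD1 replicate 3, and 0.0855 to 0.0948 without 1 vehicle library. It was also lost without a filter on low counts (adjusted p = 0.104).

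**Figure D3:**
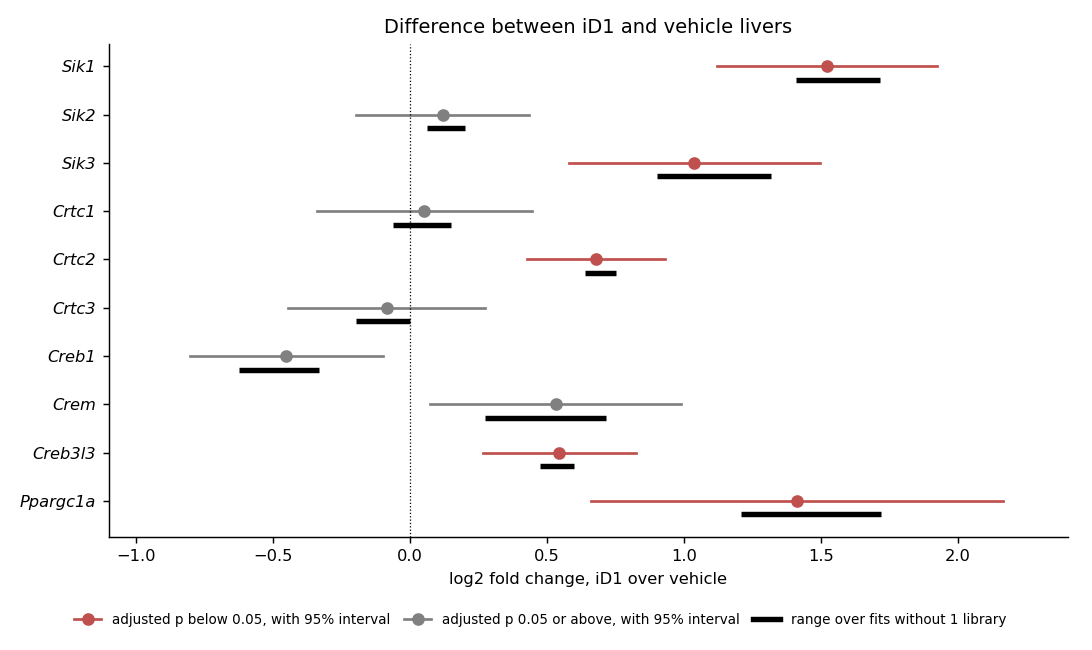
Log2 fold change of iD1 over vehicle (horizontal axis) for the 10 genes, with 95% intervals from the edgeR fit; red marks an adjusted p below 0.05 and black bars give the range over the 6 fits that leave out 1 library each. Sik1 (1.52) and Ppargc1a (1.41) lie farthest to the right with intervals of unequal width, and Creb1 (-0.45) lies to the left of 0 without being called.

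Levels of different genes were compared as CPM per kilobase of annotated exon, which overstates the length of the transcripts in use and so understates some levels. In iD1 livers Creb3l3 came first at 81.1 ± 7.2 CPM per kilobase, and Sik1 was second at 7.82 ± 1.93. The libraries of Sik1 overlapped with those of Crtc2 at 6.22 ± 0.158 and of Sik3 at 5.62 ± 0.642, which did not overlap each other. Crem followed at 3.88 ± 1.16, overlapping with Sik3 above it and with Ppargc1a at 2.81 ± 1.15 below it. Creb1, Sik2 and Crtc3 lay between 0.739 and 0.873 on average and overlapped, with Crtc1 last at 0.485 ± 0.0738 (SD, n = 3 each). In vehicle livers Creb3l3 was also first at 55.6 ± 1.07 CPM per kilobase. Crtc2 followed at 3.89 ± 0.336, then Sik3 at 2.74 ± 0.832, Sik1 at 2.72 ± 0.112 and Crem at 2.69 ± 0.292, and neighbours among these 4 overlapped in their libraries. Creb1 at 1.19 ± 0.0887 and Ppargc1a at 1.05 ± 0.119 overlapped each other, as did Sik2 at 0.802 ± 0.0548 and Crtc3 at 0.784 ± 0.109, and Crtc1 came last at 0.468 ± 0.0578 (SD, n = 3 each). Ppargc1a thus lay above every Creb1 value in iD1 livers and overlapped with Creb1 in vehicle livers.

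The pathway around these genes was described with 9 lists, which were written with earlier results of these data known and are therefore no independent evidence of direction. Over all tested genes 16.7% were called in either direction, which is the background for each list. In the list of LKB1 with its complex, and of AMPK and the other related kinases that LKB1 activates alongside the salt-inducible kinases, 3 of 18 tested genes were higher and 1 was lower. The LKB1 gene Stk11, chosen after its values were seen, measured 39.0, 43.2 and 42.1 CPM in iD1 and 47.3, 42.2 and 43.1 CPM in vehicle livers and was not called. Mark4, a microtubule affinity-regulating kinase, rose 1.71-fold (edgeR adjusted p = 0.00685), and Snrk, a sucrose non-fermenting-related kinase, fell to 41.4 ± 7.0 CPM in iD1 livers, against 68.6 ± 2.13 CPM in vehicle livers (SD, n = 3 each). Both calls held without each single library. Mark2 (log2 fold change 0.44) was called in the full fit and in none of the 6 fits without 1 library (adjusted p 0.0639 to 0.158). Cab39l, a scaffold of the LKB1 complex (log2 fold change 0.66), was called in 1 of these 6 fits, the one without iD1 replicate 1 (adjusted p elsewhere 0.110 to 0.139). The count higher was thus 2 without iD1 replicate 1 and 1 without any other library.

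Of 20 tested genes of the glucagon receptor, adenylyl cyclases and protein kinase A, 0 were higher and 2 were lower, 10% in all against 16.7% of all tested genes. The receptor gene Gcgr, chosen after its values were seen, measured 132, 164 and 148 CPM in iD1 and 161, 141 and 134 CPM in vehicle livers, with overlapping groups. Its log2 fold change was 0.027 and turned to -0.19 under library size only and to -0.050 under upper-quartile factors. The regulatory subunit Prkar2a averaged 67.8 ± 1.29 CPM in iD1 and 91.5 ± 7.71 CPM in vehicle livers (SD, n = 3 each), and the cyclase Adcy5 averaged 0.489 CPM in iD1 and 1.11 CPM in vehicle livers. Adcy5 had only 9, 14 and 14 counts in the iD1 libraries, against 32, 50 and 35 in the vehicle libraries. Prkar2a stayed called only without vehicle replicate 1 (adjusted p elsewhere 0.0542 to 0.103), and Adcy5 in none of the 6 fits (0.0511 to 0.117). The catalytic subunit gene Prkaca, chosen likewise, measured 33.6, 28.2 and 27.3 CPM in iD1 and 40.9, 39.9 and 35.1 CPM in vehicle livers, with no overlap and an adjusted p of 0.0676 in edgeR. It was called lower without iD1 replicate 1 (adjusted p = 0.0318), under library size only (0.0371) and under upper-quartile factors (0.0381).

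Among 15 tested cyclic nucleotide phosphodiesterases, enzymes that break down cAMP or cGMP, 0 were higher and 2 were lower. The share called was 13.3%, against 16.7% of all tested genes. Pde4a, specific for cAMP, measured 1.41, 1.46 and 1.11 CPM in iD1 livers, against 5.02, 5.30 and 4.07 CPM in vehicle livers. Its log2 fold change was -1.84 (SE 0.21; edgeR adjusted p = 8.47e-04). Pde9a, specific for cGMP, measured 7.74, 6.25 and 5.06 CPM in iD1 livers, against 20.99, 22.9 and 17.6 CPM in vehicle livers, a log2 fold change of -1.69 (SE 0.17; edgeR adjusted p = 5.52e-04). Both calls held without each library in turn.

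Among 12 other CREB, ATF and coactivator genes 1 was higher and 1 was lower, which is 16.7%, the same share as over all tested genes. Crebrf, a regulator that promotes breakdown of the related factor CREB3, averaged 32.9 ± 3.71 CPM in iD1 and 16.7 ± 3.9 CPM in vehicle livers (SD, n = 3 each; edgeR adjusted p = 0.0059). Crebzf, a bZIP factor known as Zhangfei, had a log2 fold change of -0.55 (SE 0.12; edgeR adjusted p = 0.0151), a call lost without iD1 replicate 3 (0.0645) or the unnumbered vehicle library (0.0512). The class IIa histone deacetylases, which salt-inducible kinases also phosphorylate, were listed with 14-3-3 and MEF2 genes. Of these 13 genes 2 were higher and 1 was lower, 23.1% in all against 16.7% of all tested genes. The 14-3-3 zeta gene Ywhaz averaged 105 ± 0.539 CPM in iD1 and 73.7 ± 1.98 CPM in vehicle livers, Hdac4 averaged 9.23 ± 0.77 CPM in iD1 and 6.06 ± 1.3 CPM in vehicle livers, and Hdac5 averaged 21.5 ± 2.19 CPM in iD1 and 31.5 ± 2.01 CPM in vehicle livers (SD, n = 3 each). Ywhaz rose and Hdac5 fell in every fit without 1 library, whereas Hdac4 was called only without vehicle replicate 2 (adjusted p elsewhere 0.0589 to 0.155). Ywhaz was not called with library size only (adjusted p = 0.0810).

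Of 21 tested genes that regulate Crtc2 or remove its phosphate, 4 were higher and 1 was lower. Together these made up 23.8% of the list, against 16.7% of all tested genes. Sirt1, a deacetylase of CRTC2, averaged 13.96 ± 0.72 CPM in iD1 and 8.47 ± 0.417 CPM in vehicle livers, and Ogt, which adds O-GlcNAc to CRTC2, averaged 47.4 ± 8.25 CPM in iD1 and 81.5 ± 0.144 CPM in vehicle livers (SD, n = 3 each). Their adjusted p-values in edgeR were 0.00442 and 0.00578, and both calls held without each library. The calcineurin subunits Ppp3cc (log2 fold change 0.90) and Ppp3r1 (0.39) and the phosphatase subunit Ppp2r2a (0.42) were higher in the full fit. Ppp3r1 was called in none of the fits without 1 library (adjusted p 0.0609 to 0.117). Ppp2r2a was called only without iD1 replicate 2 (elsewhere 0.0528 to 0.103). Ppp3cc kept its call only where iD1 replicate 1 or the unnumbered vehicle library was left out (elsewhere 0.0539 to 0.0912). The count higher thus fell to 1 without iD1 replicate 3, vehicle replicate 1 or vehicle replicate 2, and to 2 without iD1 replicate 2 or the unnumbered vehicle library.

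**Figure D4:**
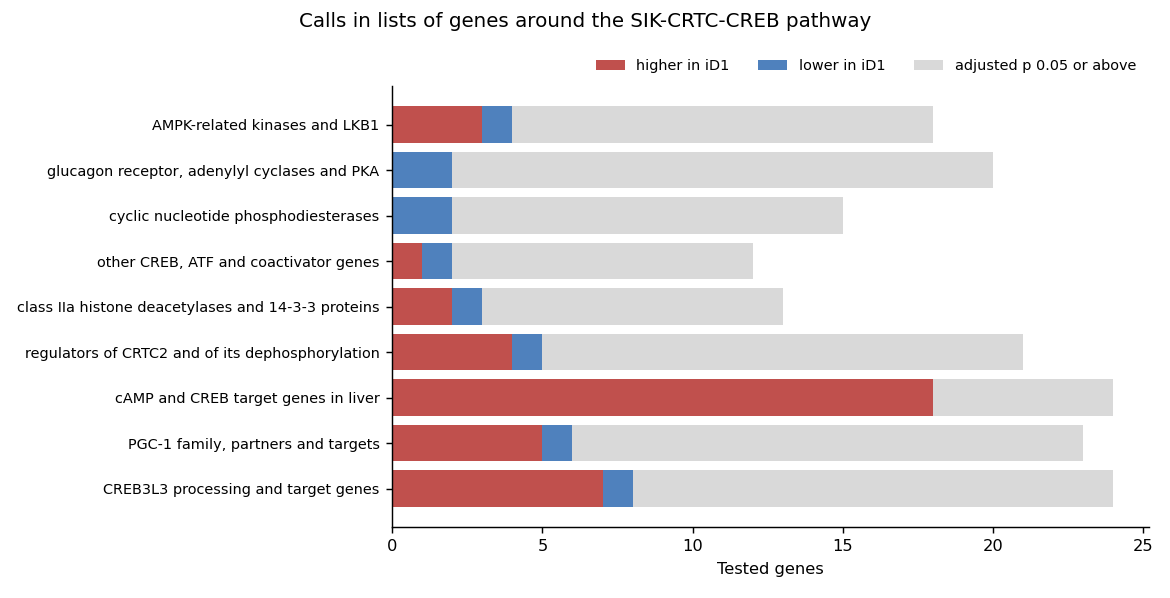
Number of tested genes (horizontal axis) called higher (red), called lower (blue) or not called (grey) in iD1 livers, for 9 lists around the SIK, CRTC and CREB pathway. The list of cAMP and CREB targets has 18 of 24 called higher, while the receptor, cyclase and kinase A list has 0 of 20 called higher.

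In the list taken as induced through cAMP and CREB, 18 of 24 tested genes were higher in iD1 livers and 0 were lower. Their median log2 fold change was 1.68. Over all tested genes 8.42% were called higher and 8.3% lower. This list too was written with earlier results known, so its count does not show that CREB was active. The calls with the smallest p-values belonged to Junb, an AP-1 subunit, Pck1, which commits oxaloacetate to glucose synthesis, Cebpb, a transcription factor of the fasting and acute phase responses, Klf6 and the phosphatase Dusp1. Pck1 measured 2254, 2484 and 2867 CPM in iD1 livers, against 426, 766 and 608 CPM in vehicle livers. Cebpb measured 226, 269 and 214 CPM in iD1 livers, against 57.3, 94.3 and 61.0 CPM in vehicle livers. Klf6 measured 12.1, 22.6 and 21.4 CPM in iD1 livers, against 4.76, 5.76 and 4.99 CPM in vehicle livers, with iD1 replicate 1 the lowest iD1 library, as for Sik1 and Ppargc1a. The whole list did not share this order. Junb and Cebpb were lowest in iD1 replicate 3 among the iD1 libraries. Fos, chosen after its values were seen, was highest in iD1 replicate 1 (12.5 CPM, against 4.01 and 3.58 CPM). Several listed genes, among them Junb, Fos, Cebpb, Klf6 and Gadd45b, are also known to respond to inflammatory or growth signals. The count ran from 13 to 18 without 1 library. Ppp1r3g, a glycogen-targeting subunit shown in the plot of these genes, had only 2 to 5 counts in a vehicle library. The core TGACG was in 18 of the 26 RefSeq windows found for the full list (69.2%), against 20.8% of all windows, and the full element was in 1, the window of Dusp1. The 18 include windows of Nr4a3 and Fosb, which did not pass the filter, and of genes that were not called, such as Id3. Per1 and Pfkfb3 gave more than 1 of these windows each, so the windows do not count genes. The genes were listed as CREB targets, so a high share follows from the choice of list and says nothing about iD1.

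**Figure D5:**
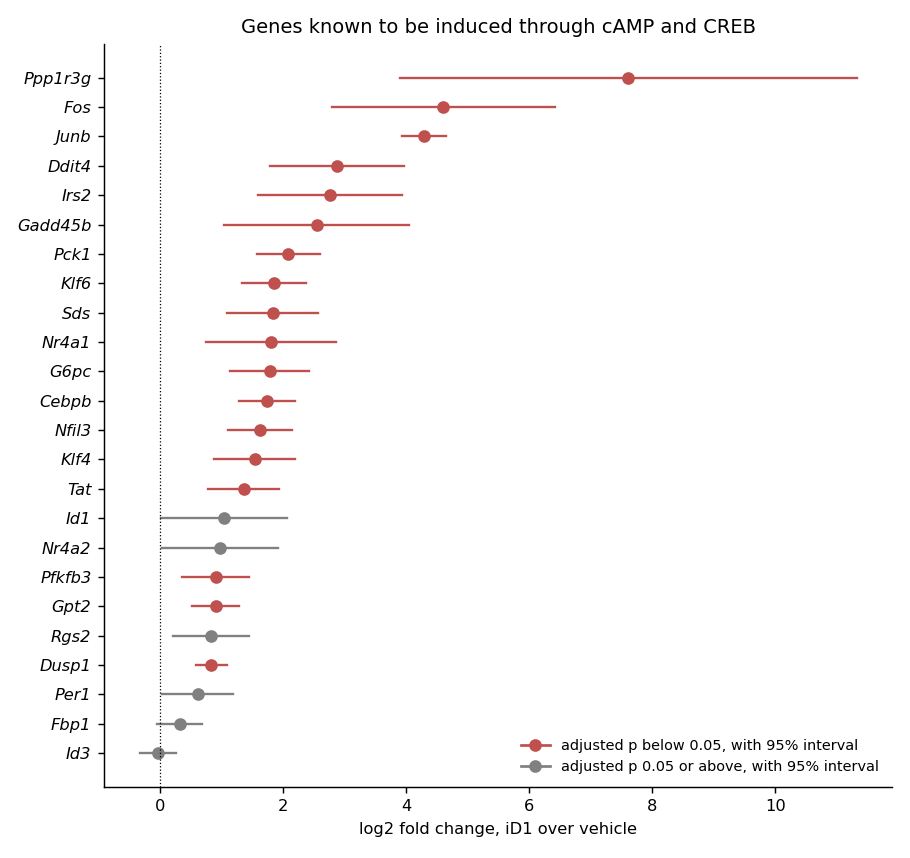
Log2 fold change of iD1 over vehicle (horizontal axis) with 95% intervals for the 24 tested genes listed as induced through cAMP and CREB. Red marks an adjusted p below 0.05 in edgeR. Estimates range from -0.04 for Id3 to 7.61 for Ppp1r3g, whose interval is the widest, and 18 of the 24 are called.

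Of 23 tested genes of the PGC-1 family, its partners and its targets, 5 were higher and 1 was lower, with a median log2 fold change of 0.21. Calls thus made up 26.1% of this list, against 16.7% of all tested genes. Pprc1, the PGC-1-related coactivator, measured 13.3, 12.6 and 11.3 CPM in iD1 livers, against 7.88, 7.95 and 7.96 CPM in vehicle livers, and its call held without each library (edgeR adjusted p = 0.00851). The nuclear receptor genes Ppara (log2 fold change 0.63) and Hnf4a (0.78) and the mitochondrial transcription factor Tfb2m (0.39) were higher, and the receptor gene Esrra, which works with PGC-1 alpha on mitochondrial genes, was lower (-0.49). These 4 calls did not hold in most fits without 1 library. Ppara kept its call only without iD1 replicate 2 (adjusted p elsewhere 0.0548 to 0.115), Hnf4a only without iD1 replicate 1 (0.0581 to 0.108) and Tfb2m only without iD1 replicate 1 (0.0827 to 0.139). Esrra kept it only without iD1 replicate 3 or vehicle replicate 1 (0.0619 to 0.115). The count higher was 4 without iD1 replicate 1, 3 without vehicle replicate 2, 2 when either iD1 replicate 2 or vehicle replicate 1 was left out, and 1 when iD1 replicate 3 or the unnumbered vehicle library was. Over the other scalings, filters and tools it ran from 0 to 7.

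In the list of genes that process Creb3l3 or are known as its targets, 7 of 24 were higher and 1 was lower. This was 33.3% in all, against 16.7% of all tested genes, with a median log2 fold change of 0.27. The higher ones with the smallest p-values were Cpt1a, the gate for fatty acid entry into mitochondria, the fasting hormone gene Fgf21, the apolipoprotein gene Apoa4 and the lipid droplet gene Cidec. Apoa4 measured 215, 317 and 230 CPM in iD1 livers, against 74.2, 101 and 115 CPM in vehicle livers. Fgf21 measured 5.08, 3.69 and 4.55 CPM in iD1 livers, against 0.898, 0.313 and 0.490 CPM in vehicle livers. Cidec lost its call without vehicle replicate 2 (adjusted p = 0.0554), and the calls of Cpt1a, Fgf21 and Apoa4 held without each library. The count higher was 3 without vehicle replicate 2, 4 without iD1 replicate 2, iD1 replicate 3 or vehicle replicate 1, and 5 without the unnumbered vehicle library.

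The 7 hepatocyte markers summed to 96763 to 106929 CPM in iD1 and 75536 to 99502 CPM in vehicle livers. Of the 7, 2 were higher: Tat, also listed above as a cAMP and CREB target, and Apoa1, also listed with Creb3l3. As background for each marker list, 8.42% of all tested genes were called higher and 8.3% lower. Alb, Ttr, Apob, Cps1 and Serpina1a were not called, with Alb averaging 70194 CPM in iD1 and 62981 CPM in vehicle livers. The 7 neutrophil markers summed to 4.35 to 12.9 CPM in iD1 and 1.47 to 2.0 CPM in vehicle livers, and 3 of the 5 tested, Retnlg, S100a8 and S100a9, were higher. These 3 had few counts, at most 12 in a vehicle library, and each was highest in iD1 replicate 2. S100a9 had 172 counts there, against 19 and 28 in the other iD1 libraries. Of 7 sinusoidal endothelial markers 2 were lower, and the 7 summed to 144 to 180 CPM in iD1 and 178 to 221 CPM in vehicle livers. Groups did not overlap for 6 of the 7, and of these Lyve1 alone lay higher in iD1 livers. Lyve1 measured 18.7, 39.9 and 38.2 CPM in iD1, against 4.99, 17.4 and 13.2 CPM in vehicle livers, and was not called. Of 7 stellate cell markers Lrat alone was called, lower, and their sums were 185 to 247 CPM in iD1 and 192 to 253 CPM in vehicle livers. Of 5 tested cholangiocyte markers Krt19 was lower and Sox9 higher, and the 6 listed summed to 28.0 to 45.6 CPM in iD1 and 22.9 to 36.7 CPM in vehicle livers. Of 8 Kupffer cell and macrophage markers 0 were called, with sums of 98.6 to 138 CPM in iD1 and 102 to 172 CPM in vehicle livers. None of the 7 lymphocyte markers passed the filter, and no listed marker was at 0 in all 6 libraries. Mitochondrially encoded genes took 8.68% to 10.3% of the counts in iD1 and 10.6% to 13.6% in vehicle livers. The part of these differences in the results above was not tested, and in whole liver a change in the number of cells of a type and in RNA per cell cannot be told apart.

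By identifier and position in GENCODE M21 on GRCm38, the 5 called genes are protein-coding. Sik1 (ENSMUSG00000024042) lies on chromosome 17 from 31844250 to 31855804, Sik3 (ENSMUSG00000034135) on chromosome 9 from 46012820 to 46224194 and Crtc2 (ENSMUSG00000027936) on chromosome 3 from 90254163 to 90264125. Creb3l3 (ENSMUSG00000035041) lies on chromosome 10 from 81084324 to 81098874 and Ppargc1a (ENSMUSG00000029167) on chromosome 5 from 51454250 to 51567726.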

How the data were processed

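RNA of 6 mouse liver libraries was sequenced, made with a stranded mRNA kit per the labels' protocols. The deposited file gives estimated counts for each gene without scaling to depth. No aligner, quantifier, build or annotation was named in the sources used here. Estimated counts were rounded. Symbols were paired with 34582 of 34866 identifiers, and positions and exon lengths came from GENCODE M21. Genes were kept by filterByExpr (minimum count 10, minimum total 15) and scaled by TMM. Groups were compared with edgeR 4.0.16 (R 4.3.3), quasi-likelihood F test, robust, two-sided, with p-values adjusted by Benjamini-Hochberg across the 13718 genes and called under 0.05. The SE is the size of the log2 fold change divided by the square root of F. The test was tested on simulated data. Alternatives were DESeq2 1.42.0 (test and size factors), limma-voom 3.58.1, other scalings and filters, non-robust shrinkage, a replicate block and leaving out each library. No pair of libraries of a group agreed within sampling noise. Promoter windows are RefSeq's.

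The 10 genes and the lists were chosen with earlier results of these data known. All 10 were named, and of each list up to 5 called genes by smallest p; other genes are marked as chosen after their values were seen, except those named as markers, examples of a list's makeup or figure labels. One gene that this rule names is not reported here.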

Additional observations from a re-analysis of the deposited data

How the results depend on the processing

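Under the alternatives run, Sik1 kept its direction and its call in all 15, and Sik3 and Crtc2 in all but the replicate block. The count of called genes was 2293, ran from 1212 to 2574 without 1 library and was 768 with the replicate block. That fit kept the 4 libraries with numbers that both groups share; deviations from the group means correlated at 0.17 for replicate 1 and -0.13 for replicate 2, so the numbers were not taken to pair the samples. The block fit called 2 of the 10 genes (Sik1 and Ppargc1a) and 26 of the listed genes, and gave log2 fold changes of 0.89 for Sik3, 0.63 for Crtc2, 0.48 for Creb3l3 and -0.032 for Gcgr. Without 1 library, between 3 and 6 of the 10 genes and between 32 and 46 listed genes were called, against 5 and 50 in the full fit. The log2 fold change then ran from -0.063 to 0.15 for Crtc1, -0.63 to -0.33 for Creb1, 0.27 to 0.72 for Crem, 0.47 to 0.60 for Creb3l3, 1.21 to 1.72 for Ppargc1a and -0.059 to 0.11 for Gcgr. With library size only, values were -0.093 for Sik2, -0.14 for Crtc1, -0.64 for Creb1, 0.34 for Creb3l3 and -0.19 for Gcgr. Upper-quartile factors gave -0.021 for Crtc1, -0.53 for Creb1 and -0.050 for Gcgr. Without a filter, values were -0.47 for Creb1 and 1.40 for Ppargc1a. Per exon length, the Crtc2 share differed by 7.97 percentage points in place of 11.7. The block fit had 4 samples and a further term, and the fits without 1 library had 1 sample fewer. The cause of the changes under any of these settings was not tested. With 100 to 236 counts a library, Crtc1 has the least depth of the 10 genes.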

Other observations

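Creb5, a CREB-related factor chosen after its values were seen, measured 0.443, 1.29 and 20.0 CPM in iD1 livers and 0.366, 0.964 and 0.613 CPM in vehicle livers. The high value rests on 431 counts in iD1 replicate 3, against 11 and 40 counts in the other iD1 libraries. Its log2 fold change was 3.42 with that library and 0.42 without it, and the gene was not called in either fit (edgeR adjusted p = 0.235 and 0.687).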
